A study of Homo sapiens with 6 samples.

Results

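Transcript levels of 34 genes of sugar breakdown were followed in Jurkat cells, an immortal human line of leukemic T cells, after exposure to bisphenol AF (BPAF). The genes were those of a list of symbols for glycolysis, glucose and lactate transport, the pyruvate dehydrogenase complex and the pentose phosphate pathway. All 34 were found by symbol among the 60856 features of the count table, and all 34 were among the 15490 features with enough counts to be tested. The BPAF group held 3 libraries of cells exposed to 1 µM BPAF, a bisphenol A analog with trifluoromethyl groups in place of methyl groups. The DMSO group held 3 libraries of cells exposed to the solvent dimethyl sulfoxide at 0.1%. No solvent level is recorded for the BPAF group. Both groups were wild-type cells of the same line in serum-supplemented medium, so each value describes 1 cell line, 1 dose and 1 time. The labels disagree on that time: 12 h stands in the treatment label and 24 h in the treatment protocol. Replicates are called biological in the study's design text, which does not say whether they were separate cultures. The p-values therefore measure the spread between these libraries.

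Glycolysis splits glucose into pyruvate in the cytosol, with a hexose phase that spends ATP and a triose phase that gains it. Pyruvate is then reduced to lactate by lactate dehydrogenase and exported, or oxidized in mitochondria by the pyruvate dehydrogenase complex. The pentose phosphate pathway branches off at glucose 6-phosphate and supplies NADPH and ribose 5-phosphate. Activated and leukemic T cells are known for high glycolysis even in oxygen.

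Depth was 20253656 to 22617613 counts per BPAF library and 20745097 to 22117976 per DMSO library. All 13 T lymphocyte markers looked up were tested, with summed levels of 3364 to 3509 CPM (a count relative to the scaled depth of its library) in BPAF libraries and 3505 to 3559 in DMSO libraries. Markers of B, myeloid, epithelial, fibroblast and erythroid cells summed to at most 24.1 CPM per list in BPAF libraries and 23.4 in DMSO libraries. The B lymphocyte list, of which CD79A alone was tested, summed to 11.7 to 12.5 CPM in BPAF libraries and 12.8 to 15.1 CPM in DMSO libraries, without overlap. In TPM the sums of that list overlapped, at 21.7 ± 1.82 in BPAF libraries and 23.1 ± 1.80 in DMSO libraries (SD, n = 3 each). MS4A1, CD79B and PAX5 of that list were at 0 in all BPAF libraries and had at most 2 counts in any DMSO library. EPCAM, KRT19, CDH1, DCN and LUM of the epithelial and fibroblast lists were at 0 in all libraries. Other members were not: 1 fibroblast marker was tested, at a mean of 2.76 CPM, and 3 erythroid markers were tested. The erythroid list summed to 106 ± 19.6 TPM in BPAF libraries and 116 ± 3.04 TPM in DMSO libraries (SD, n = 3 each), with overlap. The epithelial list summed to 1.27, 1.21 and 1.47 TPM in BPAF libraries, against 0.52, 0.68 and 0.56 TPM in DMSO libraries, without overlap, but its CPM overlapped. Most of that sum was KRT8, a keratin, with 13, 15 and 23 counts in BPAF libraries and 9, 12 and 9 in DMSO libraries (log2 fold change 0.71 ± 0.39, SE; adjusted p = 0.336 by edgeR). The part of these transcripts in the results was not tested. In bulk RNA a change in the mix of cells and a change in a gene's level within cells cannot be told apart.

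After BPAF, 6 of the 34 genes fell and 0 rose at an adjusted p under 0.05 (edgeR's quasi-likelihood test on counts, Benjamini-Hochberg adjustment over all tested genes). The 6 were LDHB, ENO1, TPI1, LDHA, PGK1 and TKT. Over all 15490 tested genes 3.40% fell and 2.65% rose by the same test, 6.06% together. At an unadjusted p under 0.05, 11 of the 34 were lower, against 10.5% of all genes, and 2 were higher, against 9.36%. All changes were small: log2 fold changes ran from -0.22 to 0.17, and 24 of the 34 lay within 0.1 of 0 in either direction. The median was -0.065 over the 34 genes and 0.0019 over all tested genes, and 27 of the 34 were below 0.

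These genes are abundant transcripts, and abundant transcripts fell more often in this comparison. The 34 genes had a median level of 114 CPM, beside 23.8 CPM over all tested genes. Of the 20 with a mean of at least 100 CPM, 6 fell and 18 were below 0, with a median log2 fold change of -0.085. Among all 2433 tested genes at that level 11.8% fell, 2.84% rose, 65.7% were below 0 and the median was -0.026.

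The sign of the median depended on which deposited table was read. In TPM, a level scaled for transcript length and library total, the median difference in log2(TPM + 1) was 0.025 over the 34 genes and 0.078 over all tested genes, and 24 of the 34 were above 0. Set against the median of all genes, 25 of the 34 were below it in TPM and 27 were below it in counts. No gene of the 34 passed an adjusted p of 0.05 in limma on log2(TPM + 1), where 1 gene of all those tested rose and 0 fell. In that TPM test 6 of the 34 and 2705 of all 15490 genes had an unadjusted p under 0.05, which are similar shares. Of the 6, LDHB was lower, and ENO2, PFKL, PFKM, PFKP and PGLS were higher.

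**Figure D1:**
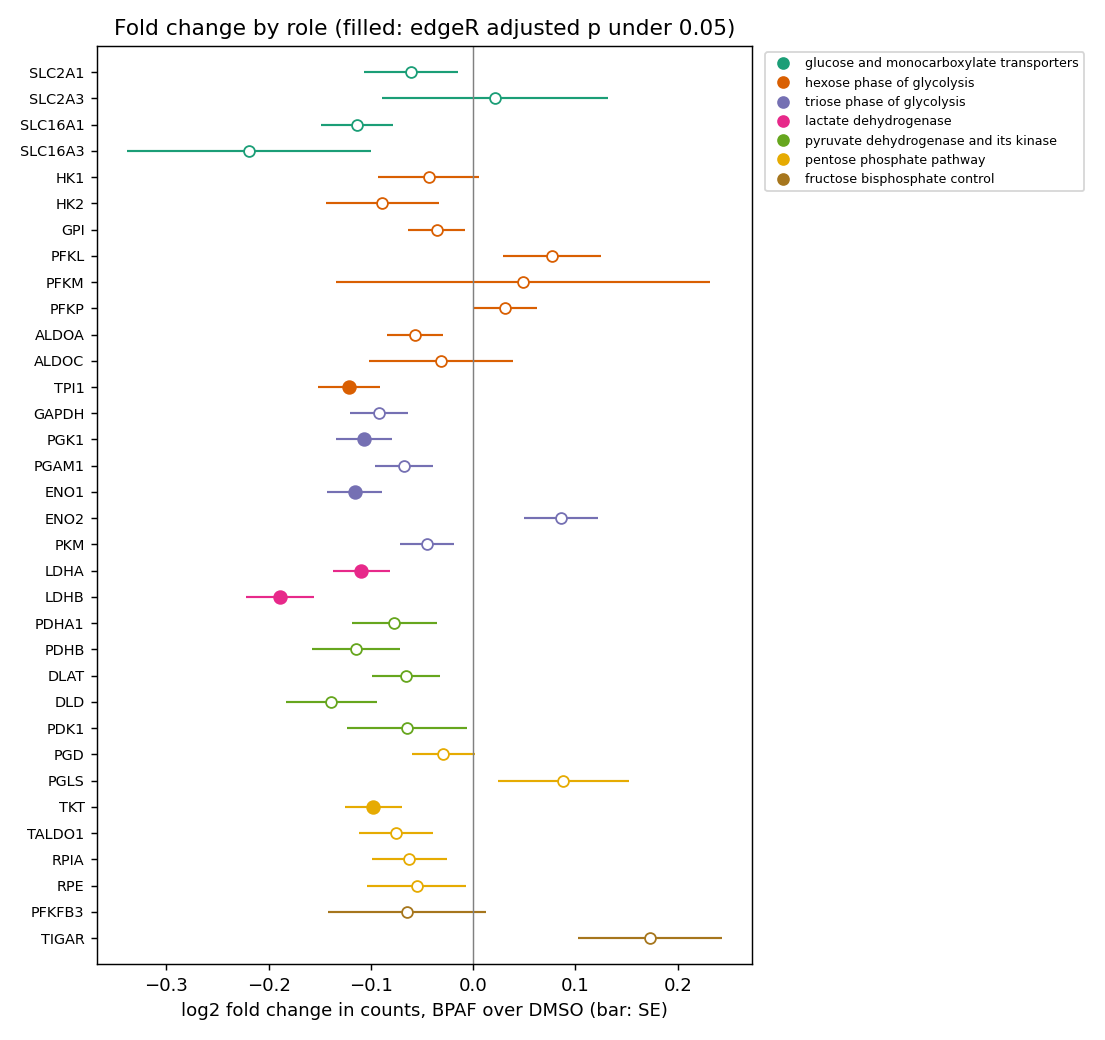
The log2 fold change in counts, BPAF over DMSO (horizontal axis), of each of the 34 genes with its standard error (bar), coloured by role. Filled points are the 6 genes with an edgeR adjusted p under 0.05. All 6 lie below 0 in counts, and LDHA, PGK1 and TKT among them lie above 0 in TPM.

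Lactate dehydrogenase interconverts pyruvate and lactate, and transcripts of both of its subunit genes fell in counts. LDHB, the subunit typical of heart, had 1308, 1332 and 1285 CPM in BPAF libraries, against 1465, 1430.2 and 1579 CPM in DMSO libraries. Every BPAF library was below every DMSO library. LDHB (ENSG00000111716, GENCODE release 29, GRCh38, chr12:21635342-21757857, minus strand) had a log2 fold change of -0.19 ± 0.03 (SE, n = 3 each; adjusted p = 0.00272 by edgeR), so it fell by 12.3%. In TPM it averaged 1757 ± 9.67 in BPAF libraries and 1891 ± 48.5 in DMSO libraries (SD, n = 3 each), again without overlap. LDHB was the only one of the 6 called genes that kept its call whichever single library was left out, with edgeR adjusted p-values of 0.0012 to 0.028.

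LDHA, the subunit typical of skeletal muscle and of many cancers, had 1028, 1049 and 1069.8 CPM in BPAF libraries, against 1151, 1110.4 and 1133 CPM in DMSO libraries. CPM did not overlap between the groups. LDHA (ENSG00000134333, chr11:18394388-18408425, plus strand) had a log2 fold change of -0.11 ± 0.03 (SE; adjusted p = 0.0232 by edgeR). In TPM its sign turned, with 891 ± 52.6 in BPAF libraries and 880.2 ± 26.6 in DMSO libraries (SD, n = 3 each), and the groups overlapped. The summed TPM of both subunits was 2603, 2645 and 2696 in BPAF libraries, against 2776, 2732 and 2805 in DMSO libraries. All BPAF sums lay under all DMSO sums, and the sum of CPM was also lower, by 10.1% in counts and 4.43% in TPM. The LDHA call was lost without BPAF library 1, BPAF library 2 or DMSO library 1, where the edgeR adjusted p reached at most 0.178.

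Promoter windows of these genes were searched for short motifs. Hypoxia-inducible factors bind ACGTG, and LDHA and PGK1 are known targets of them. ACGTG on either strand was found in 22 of 59 RefSeq promoter windows of the genes, which cover 250 bases before to 50 after a start site. The 59 windows belong to 32 of the 34 genes (SLC2A3 and SLC16A1 were not matched), and 18 of the 32 had at least 1 match. No such share was counted over all tested genes, and a gene with more windows has more chances of a match. Windows of a gene can overlap, and the same PFKM site was counted in more than 1 of them. The 22 windows are 37.3% of the 59, beside 21.4% of all 35116 windows and 25.5% of the 15358 windows of tested genes. Of the 6 genes that fell in counts, LDHA, PGK1 and TPI1 had a window with the motif, and LDHB, ENO1 and TKT had none. The first LDHA window, the LDHB window and the PGK1 window (RefSeq, GRCh38.p14) are shown because they hold several matches or none while all of these genes fell in counts, with ACGTG, or CACGT where it is on the other strand, in capitals.
LDHA, chr11:18394313-18394612, plus strand: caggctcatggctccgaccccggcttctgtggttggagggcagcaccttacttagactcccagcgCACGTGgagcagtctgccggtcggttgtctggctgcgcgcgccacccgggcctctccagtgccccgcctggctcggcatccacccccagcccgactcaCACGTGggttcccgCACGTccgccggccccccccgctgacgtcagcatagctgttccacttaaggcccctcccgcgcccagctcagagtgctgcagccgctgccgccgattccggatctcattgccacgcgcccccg
LDHB, chr12:21657793-21658092, minus strand: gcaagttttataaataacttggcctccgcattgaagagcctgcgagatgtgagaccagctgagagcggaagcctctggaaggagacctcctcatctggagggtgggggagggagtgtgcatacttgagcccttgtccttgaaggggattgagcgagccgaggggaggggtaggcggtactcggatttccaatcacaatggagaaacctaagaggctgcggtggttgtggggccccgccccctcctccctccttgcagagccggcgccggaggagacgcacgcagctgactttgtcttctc
PGK1, chrX:78103998-78104297, plus strand: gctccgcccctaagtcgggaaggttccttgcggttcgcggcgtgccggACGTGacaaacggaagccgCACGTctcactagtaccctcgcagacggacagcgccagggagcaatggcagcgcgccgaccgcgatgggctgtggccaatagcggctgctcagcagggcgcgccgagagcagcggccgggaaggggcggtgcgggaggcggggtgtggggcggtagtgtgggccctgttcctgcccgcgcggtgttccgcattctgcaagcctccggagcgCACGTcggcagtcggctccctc
CACGTG, the E-box bound by MYC and related factors, contains ACGTG on both strands, so its matches are counted in both searches. It was in 7 of the 59 windows (11.9%), beside 7.26% of all windows and 9.43% of those of tested genes. GGGCGG, the GC box, was in 40 windows (67.8%), beside 45.0% of all and 65.2% of tested-gene windows. TATAAA, the TATA box, was in 4 windows (6.78%), beside 11.5% of all and 6.08% of tested-gene windows. All motifs were searched on both strands, and a match is a run of letters, not a bound site.

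The triose phase holds the most abundant of these transcripts, and ENO1 and PGK1 fell in counts while GAPDH, PGAM1, ENO2 and PKM did not pass the threshold. ENO1, the main enolase, had 1694, 1696 and 1659.7 CPM in BPAF libraries, against 1833, 1801 and 1838 CPM in DMSO libraries. Again no BPAF library reached the DMSO range. ENO1 (ENSG00000074800, chr1:8861000-8879250, minus strand) had a log2 fold change of -0.12 ± 0.03 (SE; adjusted p = 0.0133 by edgeR). Its TPM was 1616 ± 12.8 in BPAF libraries and 1649 ± 30.9 in DMSO libraries (SD, n = 3 each), lower but overlapping. PGK1, the phosphoglycerate kinase that makes the first ATP of the triose phase, had 883, 907 and 879 CPM in BPAF libraries, against 975, 956 and 943 CPM in DMSO libraries. These too did not overlap. PGK1 (ENSG00000102144, chrX:77910739-78129296, plus strand) had a log2 fold change of -0.11 ± 0.03 (SE; adjusted p = 0.0238 by edgeR). In TPM its sign turned, at 459.6 ± 17.7 in BPAF libraries and 453 ± 19.7 in DMSO libraries (SD, n = 3 each). Both calls were lost without BPAF library 1, BPAF library 3 or DMSO library 1, where the edgeR adjusted p reached at most 0.081 for ENO1 and 0.147 for PGK1.

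GAPDH, glyceraldehyde 3-phosphate dehydrogenase and a common reference gene in quantitative PCR, ranked 6 among all tested genes by mean CPM. It had 3697, 3772 and 3589 CPM in BPAF libraries, against 3951, 3864 and 3973 CPM in DMSO libraries. No BPAF library reached the DMSO range. Its log2 fold change was -0.09 ± 0.03 (SE; adjusted p = 0.0576 by edgeR), just outside the threshold. The adjusted p was 0.0026 in DESeq2, 0.0139 in DESeq2 without independent filtering and 0.0138 in limma-voom, all inside it. GAPDH TPM overlapped, at 5029 ± 59.8 in BPAF libraries and 5076 ± 72.5 in DMSO libraries (SD, n = 3 each).

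PGAM1, a phosphoglycerate mutase, had 618, 629 and 603 CPM in BPAF libraries, against 660.5, 636 and 643 CPM in DMSO libraries. The groups did not overlap, and the log2 fold change of -0.07 ± 0.03 (SE) had an edgeR adjusted p of 0.175. ENO2, the enolase typical of neurons, was the single gene of the 34 whose CPM in every BPAF library was above every DMSO library. It had 115, 118 and 114 CPM in BPAF libraries, against 112, 108 and 106 CPM in DMSO libraries. Its log2 fold change was 0.09 ± 0.04 (SE; adjusted p = 0.181 by edgeR), and its TPM was also higher without overlap, at 89.7 ± 2.73 in BPAF libraries and 78.1 ± 4.45 in DMSO libraries (SD, n = 3 each). In all, CPM groups did not overlap in 15 genes lower and 1 higher, beside 12.8% lower and 12.0% higher over all tested genes. PKM, which encodes the pyruvate kinase of the last step, did not overlap in either table, with opposite signs. It had 1236 ± 1.09 CPM in BPAF libraries and 1275 ± 11.5 in DMSO libraries, but 979 ± 19.3 TPM in BPAF libraries and 938 ± 23.9 in DMSO libraries (SD, n = 3 each). Neither PKM difference passed its test across all genes (edgeR adjusted p = 0.356 in counts).

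**Figure D2:**
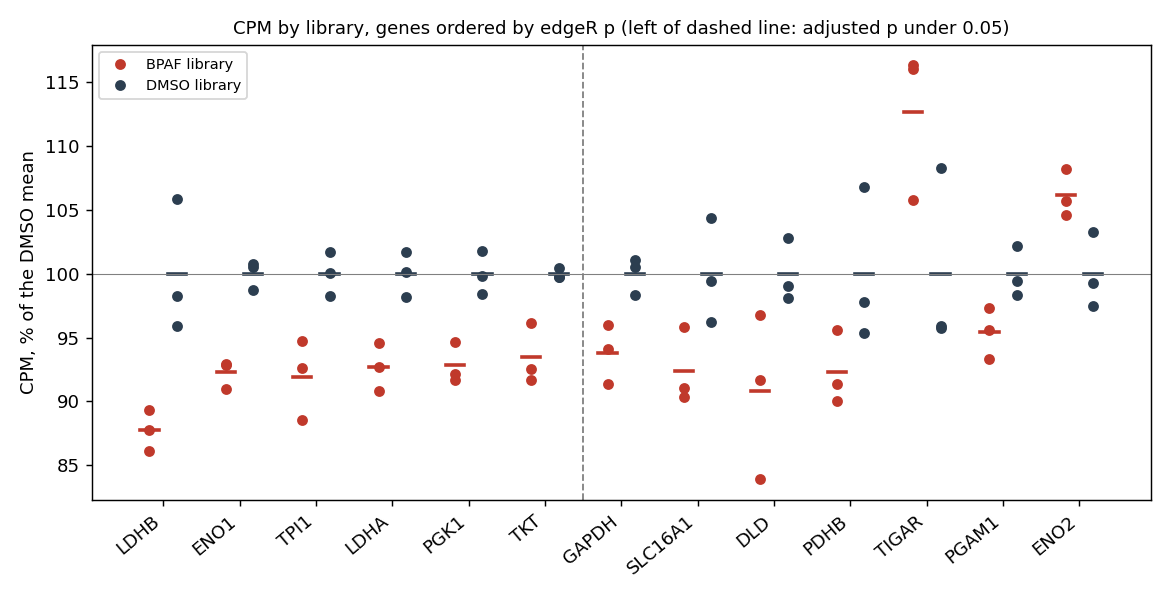
CPM of each BPAF library (left of each pair) and DMSO library (right), as a percentage of the gene's DMSO mean, for the 13 genes with an unadjusted edgeR p under 0.05. Horizontal dashes are group means. The 6 genes left of the dashed line have an adjusted p under 0.05 and no overlap in CPM, and among them LDHA, PGK1 and TKT have the opposite sign in TPM.

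In the hexose phase 1 of 9 genes fell in counts, 6 were below 0 and 3 above, with a median of -0.036. TPI1, the isomerase that joins both triose phosphates into 1 stream, had 423, 433 and 405 CPM in BPAF libraries, against 465, 449 and 457 CPM in DMSO libraries. No BPAF library reached the DMSO range. TPI1 (ENSG00000111669, chr12:6867119-6870948, plus strand) had a log2 fold change of -0.12 ± 0.03 (SE; adjusted p = 0.0200 by edgeR). Its TPM overlapped, at 541 ± 14.9 in BPAF libraries and 554 ± 13.6 in DMSO libraries (SD, n = 3 each). The call was lost without BPAF library 1, BPAF library 3 or DMSO library 1, where the edgeR adjusted p reached at most 0.112.

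The 3 genes above 0 in the hexose phase were the phosphofructokinases, which catalyze the committed step. PFKP, the platelet form and the most abundant here, had 253 ± 4.66 CPM in BPAF libraries and 248 ± 8.68 in DMSO libraries. PFKL, the liver form, had 93.3 ± 7.33 CPM in BPAF libraries and 88.3 ± 1.43 in DMSO libraries. PFKM, the muscle form, had 3.93 ± 0.094 CPM in BPAF libraries and 3.80 ± 0.898 in DMSO libraries (SD, n = 3 each). None passed the threshold, with log2 fold changes of 0.03, 0.08 and 0.05 for PFKP, PFKL and PFKM. In TPM every BPAF library was above every DMSO library for each of these genes. The share of all tested genes without overlap in TPM was not counted. Differences in log2(TPM + 1) were 0.12, 0.19 and 0.57 for PFKP, PFKL and PFKM, beside a median of 0.078 over all tested genes. None of these passed in limma on log2(TPM + 1) (adjusted p = 0.232, 0.163 and 0.208). PFKM TPM was 4.85, 2.99 and 3.62 in BPAF libraries, against 2.77, 2.36 and 1.59 in DMSO libraries. The remaining hexose-phase genes moved by at most 0.09 in counts in either direction. HK1 and HK2, the hexokinases that trap glucose in the cell, had log2 fold changes of -0.04 and -0.09. GPI, the isomerase at glucose 6-phosphate, had -0.04, and the aldolases ALDOA and ALDOC had -0.06 and -0.03. In log2(TPM + 1) the differences of HK1, HK2, GPI, ALDOA and ALDOC were all above 0. For HK2 the difference was only 0.0026 ± 0.083 (SE), and mean TPM was 18.58 in BPAF libraries and 18.60 in DMSO libraries. ALDOA shares its strand and part of its sequence with the annotated gene AC093512.2, and the summed CPM of both was 689 ± 4.41 in BPAF libraries and 718 ± 10.4 in DMSO libraries (SD, n = 3 each), without overlap.

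Among transporters 0 of 4 passed the threshold, with a median log2 fold change of -0.087. SLC16A1 encodes the lactate transporter MCT1. It had 175, 165 and 166 CPM in BPAF libraries, against 176, 182 and 191 CPM in DMSO libraries. No BPAF library reached the DMSO range, although BPAF library 1 came close to DMSO library 1. The log2 fold change was -0.11 ± 0.03 (SE; adjusted p = 0.0607 by edgeR). SLC16A3, which encodes MCT4, a transporter known for lactate export, had the lowest log2 fold change of the 34, at -0.22 ± 0.12 (SE; adjusted p = 0.325 by edgeR). It had 6.38, 6.33 and 6.49 CPM in BPAF libraries, against 7.37, 7.44 and 7.55 CPM in DMSO libraries. CPM did not overlap, but TPM did. SLC16A3 overlaps the annotated gene AC132872.4 on its strand, and the summed CPM of both overlapped between the groups. That sum was 7.78 ± 0.697 in BPAF libraries and 8.96 ± 0.519 in DMSO libraries (SD, n = 3 each). SLC2A1, the glucose transporter GLUT1, had 65.4 ± 1.95 CPM in BPAF libraries and 68.2 ± 3.29 in DMSO libraries. SLC2A3, GLUT3, had 8.78 ± 0.657 CPM in BPAF libraries and 8.66 ± 0.127 in DMSO libraries (SD, n = 3 each). SLC2A3 has annotated pseudogenes whose summed counts were 31.8% to 66.9% of its own per library, so its level is uncertain. For the other genes with pseudogenes that share was at most 0.589%.

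All 5 genes of the pyruvate dehydrogenase group were below 0 in counts and 0 passed the threshold, with a median of -0.077. DLD, the dihydrolipoamide dehydrogenase subunit, had 102, 111 and 117 CPM in BPAF libraries, against 119, 120.2 and 125 CPM in DMSO libraries. All BPAF libraries were lower, and they spread more widely than the DMSO libraries. Its log2 fold change was -0.14 ± 0.04 (SE; adjusted p = 0.0769 by edgeR). Among fits without 1 library DLD passed only without BPAF library 3, at an edgeR adjusted p of 0.0305 (largest 0.363). Its TPM overlapped, at 88.2 ± 8.52 in BPAF libraries and 97.5 ± 10.3 in DMSO libraries (SD, n = 3 each). PDHB, the beta subunit of the first enzyme, had 101, 97.0 and 95.6 CPM in BPAF libraries, against 104, 101 and 113 CPM in DMSO libraries. BPAF library 1 and DMSO library 2 overlapped, and the log2 fold change was -0.11 ± 0.04 (SE; adjusted p = 0.129 by edgeR). In TPM, PDHB was lower without overlap, at 104 ± 1.64 in BPAF libraries and 108 ± 3.92 in DMSO libraries (SD, n = 3 each). PDHA1, the alpha subunit, and DLAT, the acetyltransferase core, had log2 fold changes of -0.08 and -0.07. PDK1, the kinase that switches the complex off, had -0.06. These last 3 genes were above 0 in TPM.

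Of 65 other genes of these pathways looked up by symbol, 36 were tested, and 2 passed the threshold, 1 in each direction. Their median log2 fold change was -0.046. By the same test 2.65% of all tested genes rose and 3.40% fell. MPC2, a subunit of the carrier that brings pyruvate into mitochondria, had 51.7, 52.9 and 54.1 CPM in BPAF libraries, against 62.3, 61.4 and 61.6 CPM in DMSO libraries. The gap between the groups exceeded the spread within either. MPC2 had a log2 fold change of -0.22 ± 0.05 (SE; adjusted p = 0.00546 by edgeR), and the call held without any single library. PDP2, a phosphatase that switches pyruvate dehydrogenase back on, had 67.7, 69.6 and 67.0 CPM in BPAF libraries, against 58.9, 63.1 and 60.2 CPM in DMSO libraries. The groups did not overlap, and the log2 fold change was 0.16 ± 0.04 (SE; adjusted p = 0.0317 by edgeR), which among fits without 1 library was called only without DMSO library 2 (largest edgeR adjusted p 0.135). In DESeq2 PDP2 did not pass, with an adjusted p of 0.0806, or 0.0977 without independent filtering. PDP2 TPM overlapped, at 18.75 ± 1.34 in BPAF libraries and 16.9 ± 2.66 in DMSO libraries (SD, n = 3 each). PGM2, a phosphopentomutase, and PDPR, the regulatory subunit of the phosphatase, came next, at log2 fold changes of -0.13 and 0.10 (edgeR adjusted p = 0.0644 and 0.0657).

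In the pentose phosphate pathway 1 of 6 genes fell in counts, 5 were below 0 and the median was -0.059. TKT, the transketolase of the non-oxidative branch, had 533, 554 and 528 CPM in BPAF libraries, against 579, 575 and 574 CPM in DMSO libraries. The DMSO libraries lay close together, above all BPAF libraries. TKT (ENSG00000163931, chr3:53224707-53256052, minus strand) had a log2 fold change of -0.10 ± 0.03 (SE; adjusted p = 0.0424 by edgeR). In TPM its sign turned, at 423 ± 3.90 in BPAF libraries and 412 ± 8.77 in DMSO libraries (SD, n = 3 each), with overlap. Among fits without 1 library TKT was called only without BPAF library 2 (largest edgeR adjusted p 0.208), and its call was lost with upper quartile scaling. TALDO1, the transaldolase, RPIA, which makes ribose 5-phosphate, and RPE, its epimerase partner, had log2 fold changes of -0.08, -0.06 and -0.06. PGD, the oxidative step that forms ribulose 5-phosphate, had -0.03, and PGLS, the lactonase before it, had 0.09 ± 0.06 (SE; adjusted p = 0.495 by edgeR).

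Fructose 2,6-bisphosphate, the activator of phosphofructokinase, is made by PFKFB3, and TIGAR encodes a phosphatase that removes it. PFKFB3 had 42.6 ± 4.78 CPM in BPAF libraries and 44.6 ± 3.06 in DMSO libraries (SD, n = 3 each). TIGAR had 24.7, 27.1 and 27.1 CPM in BPAF libraries, against 22.3, 25.2 and 22.4 CPM in DMSO libraries. BPAF library 1 lay below DMSO library 2, so the groups overlapped. The TIGAR log2 fold change of 0.17 ± 0.07 (SE; adjusted p = 0.165 by edgeR) was the highest of the 34. It overlaps the annotated gene AC008012.1 on its strand, and the summed CPM of both was 27.1 ± 0.553 in BPAF libraries and 26.0 ± 0.994 in DMSO libraries (SD, n = 3 each). That sum overlapped between the groups, as did TIGAR in TPM, where its sign turned.

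Of 14 transcriptional regulators of the pathway 13 were tested. The median log2 fold change of the 13 was 0.014. HIF1A, the oxygen-regulated subunit of the factor that binds ACGTG, had 75.4 ± 2.69 CPM in BPAF libraries and 75.9 ± 3.27 in DMSO libraries (SD, n = 3 each; edgeR adjusted p = 0.948). MYC, KLF4 and MLXIP had log2 fold changes of -0.09, -0.88 and 0.07 (edgeR adjusted p = 0.120, 0.186 and 0.274), with KLF4 under 1 CPM in all libraries. TXNIP, which restrains glucose uptake, had 1, 8 and 4 counts in BPAF libraries and 2, 10 and 8 in DMSO libraries, too few to test.

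Levels of the 34 genes span from GAPDH at the top to PFKM at the bottom of the TPM order. After GAPDH came LDHB, ENO1, PKM and LDHA, and after them ALDOA. Neighbours in this order often overlapped. PGAM1 and TPI1 were at 560.2 ± 4.02 and 541 ± 14.9 TPM in BPAF libraries, and at 553 ± 16.4 and 554 ± 13.6 TPM in DMSO libraries (SD, n = 3 each). Several families are carried by 1 isozyme. ENO1 held 94.9%, 94.6% and 94.6% of enolase TPM in BPAF libraries, against 95.3%, 95.4% and 95.7% in DMSO libraries. The ENO1 shares did not overlap and differed by -0.743 percentage points (two-sided exact permutation test, p = 0.1, the smallest that 3 against 3 can give). PFKP held 73.1%, 72.8% and 74.2% of phosphofructokinase TPM in BPAF libraries, against 75.0%, 74.9% and 74.4% in DMSO libraries. These shares differed by -1.41 points without overlap (exact permutation test, p = 0.1), although the PFKP share of counts overlapped. LDHA held 32.5%, 33.2% and 35.2% of lactate dehydrogenase TPM in BPAF libraries, against 32.8%, 31.9% and 30.6% in DMSO libraries, with overlap (exact permutation test, p = 0.2). Its share of counts was 44.5 ± 0.816% in BPAF libraries and 43.2 ± 1.21% in DMSO libraries (SD, n = 3 each), without overlap (exact permutation test, p = 0.1). In counts the ENO1 and SLC16A1 shares also did not overlap. Over the 9 shares of TPM compared the lowest Benjamini-Hochberg adjusted p of the exact permutation tests was 0.36, and over the 9 shares of counts it was 0.3.

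**Figure D3:**
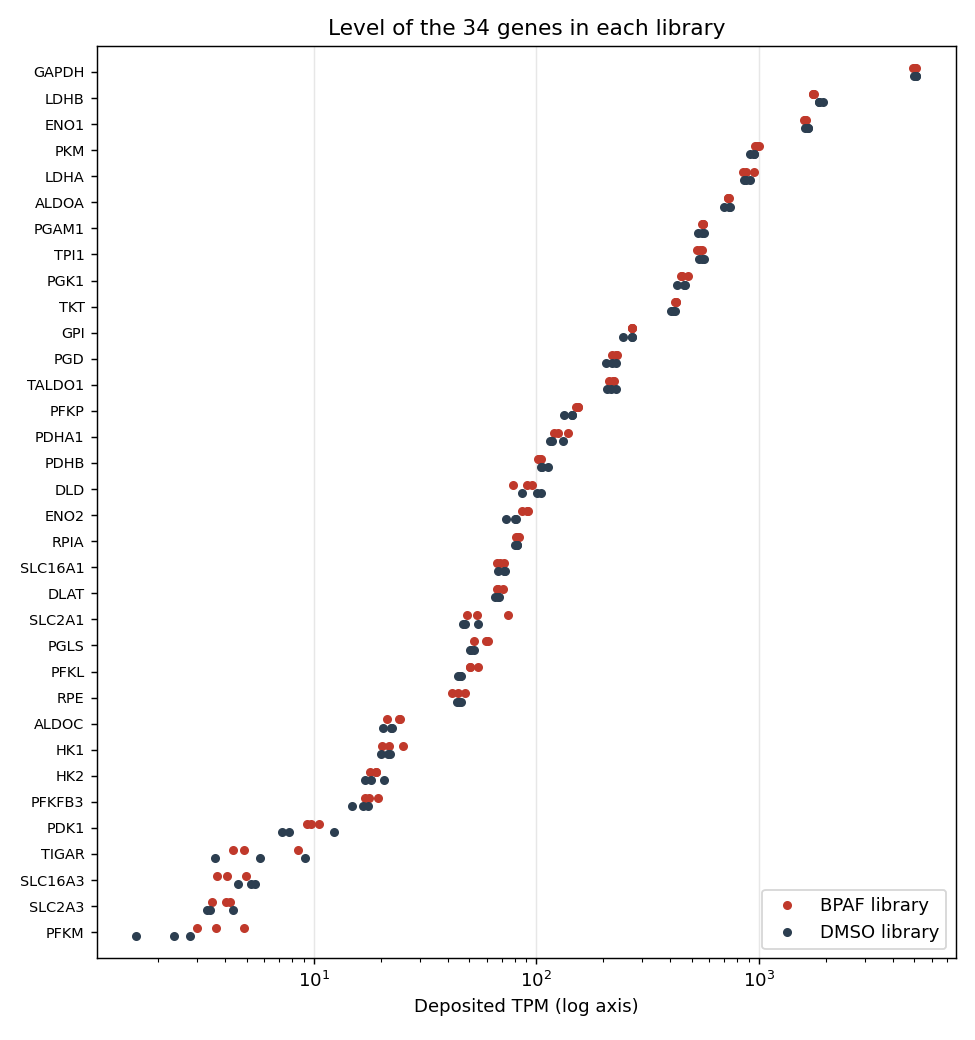
Deposited TPM (logarithmic axis) of the 34 genes in each BPAF library (upper points) and DMSO library (lower points), ordered by level. GAPDH averages 5029 TPM in BPAF libraries and 5076 in DMSO libraries, and the BPAF and DMSO points of most genes lie close together beside the distances between genes.

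The summed level of the 34 genes was 14365, 14604 and 14199.6 CPM in BPAF libraries, against 15456, 15139 and 15424 CPM in DMSO libraries. The groups did not overlap and the mean fell by 6.19% in BPAF libraries. Summed TPM overlapped, at 14808 ± 54.6 in BPAF libraries and 14887 ± 222 in DMSO libraries (SD, n = 3 each). Counts before any scaling gave a share of 1.45 ± 0.015% of each BPAF library and 1.51 ± 0.013% of each DMSO library (SD, n = 3 each), without overlap. Scaling factors were 1.008 to 1.016 in BPAF libraries and 0.982 to 0.992 in DMSO libraries, so scaling lowers BPAF values relative to DMSO values.

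With 1 transcript length per gene, the ratio of a gene's count to its TPM would be the same in every library up to a constant. That ratio, scaled to each library, varied 1.09-fold between libraries in the median of the 34 genes and 1.13-fold over all tested genes. It varied by less than 1.1-fold in 17 of the 34 and by more than 1.2-fold in 9. The widest were TIGAR at 2.50-fold, PFKM at 2.39-fold, SLC2A1 at 1.68-fold and PDK1 at 1.64-fold. SLC2A1 had 48.6, 74.9 and 54.0 TPM in BPAF libraries, against 54.7, 46.7 and 48.0 TPM in DMSO libraries. BPAF library 2 stood apart in TPM, but in CPM the BPAF libraries were at 64.3, 67.7 and 64.3. The labels do not say how TPM were made, and the part of transcript length in these differences was not tested.

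**Figure D4:**
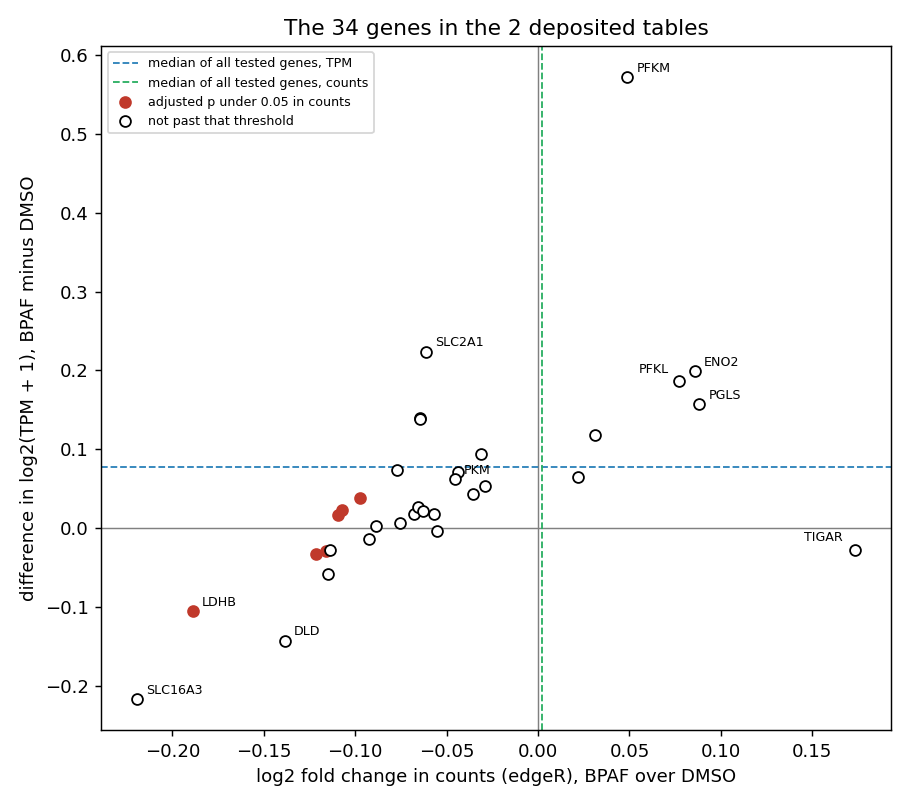
The log2 fold change in counts (horizontal axis) and the difference in log2(TPM + 1) (vertical axis), BPAF against DMSO, of the 34 genes. Dashed lines are the medians of all tested genes, 0.0019 in counts and 0.078 in TPM, and filled points are the 6 genes with an adjusted p under 0.05 in counts, of which LDHB, ENO1 and TPI1 are below 0 on both axes and LDHA, PGK1 and TKT are above 0 in TPM.

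Among loci named after the genes, 127 were found, of which 119 were pseudogenes, and 7 were tested. Of the 7, 2 rose and 0 fell, beside 2.65% and 3.40% of all tested genes. SLC16A1-AS1, a transcript opposite the lactate transporter gene, had 9.25, 8.09 and 8.58 CPM in BPAF libraries, against 5.99, 5.20 and 6.77 CPM in DMSO libraries. Every BPAF library was above every DMSO library, while SLC16A1 itself had a log2 fold change below 0. SLC16A1-AS1 (ENSG00000226419, chr1:112956415-113047055, plus strand) had a log2 fold change of 0.53 ± 0.13 (SE; adjusted p = 0.0177 by edgeR). The call was lost without BPAF library 1, BPAF library 3, DMSO library 1 or DMSO library 2 (largest edgeR adjusted p 0.101), and its TPM groups overlapped. PGLS-DT, divergent to PGLS, had 65, 58 and 58 counts in BPAF libraries, against 43, 25 and 28 in DMSO libraries. Its edgeR adjusted p was 0.0339 and among fits without 1 library it was called only without DMSO library 1 (largest edgeR adjusted p 0.139). DESeq2 gave PGLS-DT no adjusted p, and 0.0724 without independent filtering, which misses the threshold. HK2-DT, divergent to HK2, had a log2 fold change of 0.16 ± 0.11 (SE; adjusted p = 0.475 by edgeR). The libraries are stranded per the labels, but no label says whether counting used strand, so reads of antisense pairs may not be separated. The 4 tested pseudogenes SLC2A3P1, TPI1P2, GAPDHP62 and PGAM1P5 did not pass the threshold.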

How the data were processed

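Polyadenylated RNA was sequenced as stranded paired-end libraries, per the labels' protocols. HISAT2, featureCounts, cutadapt and FastQC, all without a version, and the builds hg38 and GRCh38 appear in the submitters' processing notes. The authors deposited a table of estimated counts, some of them not whole, and a table of TPM. Counts were rounded to whole numbers. Of the tested genes 64.4% had a count that was not whole in at least 1 library, and 25 of the 34 did.

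edgeR 4.0.16 in R 4.3.3 fitted all 6 libraries with filterByExpr, TMM scaling and a robust quasi-likelihood fit without covariates. The common biological coefficient of variation was 3.77%. CPM are TMM-scaled, and SE is the absolute log2 fold change over the square root of F. Alternatives used DESeq2 1.42.0, limma 3.58.1 on the deposited TPM and voom. The edgeR fit was tested on simulated data. Gene positions are from GENCODE release 29. For the named genes, all 34 were given, and of other lists those past the threshold, the 4 with the smallest p, and HIF1A, MYC and TXNIP, with some genes of these lists not reported here. The 34 genes and the lists were chosen with earlier results of these data known. Same-numbered libraries did not deviate together. Python 3.11.15 with numpy 2.4.6, pandas 2.3.3 and matplotlib 3.10.9 made sums and figures.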

Additional observations from a re-analysis of the deposited data

How the results depend on the processing

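Each of the 34 fold changes was recomputed under 17 alternatives, and 495 of these values kept direction and side of the threshold. All 6 calls held in direction under every alternative on counts. Over the 15 alternatives on counts, those without a library included, 4 genes that were not called turned direction: SLC2A3 without BPAF library 3 (-0.036; range without 1 library -0.036 to 0.071), PFKM without DMSO library 3 (-0.12; -0.12 to 0.22), ALDOC without BPAF library 2 (0.0039; -0.071 to 0.0039) and PFKFB3 without BPAF library 2 (0.022; -0.12 to 0.022). On TPM 19 of the 34 turned, with these differences at a pseudocount of 1, and of 0.1 where a second value is given: SLC2A1 0.22 and 0.23, HK1 0.072 and 0.074, HK2 0.0026 and 0.0029, GPI 0.043 and 0.044, ALDOA 0.018, ALDOC 0.094 and 0.098, PGK1 0.022 and 0.023, PGAM1 0.018, PKM 0.062, LDHA 0.016, PDHA1 0.073 and 0.074, DLAT 0.027 and 0.028, PDK1 0.14 and 0.16, PGD 0.054, TKT 0.038 and 0.039, TALDO1 0.0071, RPIA 0.022, PFKFB3 0.14 and 0.15, TIGAR -0.028 and -0.027. The median of the 34 turned to 0.025 with either pseudocount. These turns are set against 0, while the median of all tested genes was 0.078 on TPM with a pseudocount of 1. Of the 19 genes, only SLC2A1, ALDOC, PDK1 and PFKFB3 lay above that median of all tested genes.

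Genes higher numbered 411 in the edgeR fit, 163 with DESeq2 and 244 with DESeq2 without independent filtering. On TPM 1 and 2 genes were higher with pseudocounts of 1 and 0.1, and 0 lower with either, beside 527 in edgeR. Of the 34 genes, 6 were lower in edgeR and 0 on TPM with either pseudocount. Leaving out 1 library gave 147 to 368 genes higher, 175 to 541 lower, and 1 to 6 of the 34 lower: 1 without BPAF library 1 or DMSO library 1, 3 without BPAF library 3, 5 without DMSO library 2 or 3, and 6 without BPAF library 2. The median of the 34 then lay between -0.073 and -0.057. Limiting the test to protein-coding genes was chosen after seeing the data and lost TKT.

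The HK1 share of hexokinase TPM differed by 1.23 points, and by -0.00545 to 2.7 points without 1 library. The SLC2A1 share of both glucose transporters differed by 0.452 points in TPM, by -0.566 points in counts and by -0.539 to 1.2 points without 1 library. The cause of these changes was not tested.

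Labels number the replicates 1 to 3 in both groups, but deviations of same-numbered libraries had correlations of 0.001, -0.043 and 0.014 over genes. With the replicate number as a block, 377 genes were higher and 449 lower, and 6 of the 34 were lower, with DLD gained and TKT lost. The block median of the 34 was -0.066. DESeq2 gave no adjusted p for 6 of the 34. Genes under 10 CPM, PFKM, SLC16A3 and SLC2A3, had standard errors of 0.11 to 0.18, so changes as small as those of LDHB could not be detected in them at this depth.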
